A study of Mus musculus with 9 samples.

Results

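A set of 6 genes of a bone marrow series was followed across every library: Cldn5, Efna1, Gem, Card10, Unc45b and Kcnj5, which are 6 of the 2402 genes in the deposited table. They had been proposed as endothelial-type genes with almost no reads in progenitors, by their values in this same table. The series holds mRNA sequencing of 9 samples of cells sorted from the bone marrow of male mice on a C57BL/6 background that carried a Flt3-driven Cre and the mTmG reporter, which turns from Tomato (Tom) to GFP once a cell or its ancestor has made Cre. From old mice the labels list Tom+ HSC (blood stem cells), Tom+ megakaryocyte progenitors (MkP, the precursors of platelet-forming cells) and GFP+ MkP, with 2 samples each, and from young mice, aged 3 months, they list 3 samples of GFP+ MkP. Old mice were 18 to 20 months of age in one label, and another gives 20 months. MkP were sorted as lineage-negative, cKit+, Sca1-, CD150+ and CD41+ cells, and HSC as lineage-negative, cKit+, Sca1+, CD150+ and Flk2- cells. Whether each sample came from its own animal is not stated.

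The table has 9 rows without sample names, so no row has a known sample or group, and the study's groups were not compared. Rows are called libraries 1 to 9. They were described by their level of Ly6a, the gene of the Sca1 antigen, with a threshold of 1000 normalized counts (reads per gene scaled per library by the authors). Ly6a was at 4256 in library 3 and 5772 in library 4, and between 21.0 and 187 in the other 7. The library just inside the threshold is therefore library 3 and the one just outside is library 9. Libraries 3 and 4 are called Ly6a-high below. This split was made on a measured gene, so it is not one of the study's groups and carries no test, mean or SD.

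Cldn5 encodes claudin 5, a membrane protein that seals the tight junctions between endothelial cells. Efna1 encodes ephrin A1, a membrane-tethered ligand of EphA receptors. Gem encodes a small GTPase that binds calcium channel beta subunits and lowers channel activity. Card10, also called Carma3, encodes a scaffold that joins BCL10 and MALT1 and passes receptor signals on to NF-kB, mainly outside blood cells. Unc45b encodes a chaperone that works with HSP90 to fold myosin of striated muscle, and Kcnj5 a subunit of a potassium channel opened by G proteins, known from heart and adrenal gland. Endothelial and blood stem cells have a common origin in the embryo and share several surface and regulatory genes. By these known roles only Cldn5 and Efna1 are well described as endothelial, so the genes are named singly here.

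Of the genes, 5 had high values in both Ly6a-high libraries and few reads in the other 7, and Kcnj5 showed the opposite. Kcnj5 therefore goes against the description under which it was proposed. The promoters of 3 of the genes are shown, 2 that were high in libraries 3 and 4 and Kcnj5 as the gene with the reverse order. Each is the stretch of 250 bases before the RefSeq start in the GRCm38.p6 assembly, the assembly also called mm10, written from 5′ to 3′ on the strand of the gene, with matches to the motifs named further on in capitals.
Cldn5: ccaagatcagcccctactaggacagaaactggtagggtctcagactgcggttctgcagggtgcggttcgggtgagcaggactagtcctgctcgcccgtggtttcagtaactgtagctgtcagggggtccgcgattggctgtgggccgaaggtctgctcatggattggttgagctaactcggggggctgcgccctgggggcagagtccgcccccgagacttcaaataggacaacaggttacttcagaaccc
Card10: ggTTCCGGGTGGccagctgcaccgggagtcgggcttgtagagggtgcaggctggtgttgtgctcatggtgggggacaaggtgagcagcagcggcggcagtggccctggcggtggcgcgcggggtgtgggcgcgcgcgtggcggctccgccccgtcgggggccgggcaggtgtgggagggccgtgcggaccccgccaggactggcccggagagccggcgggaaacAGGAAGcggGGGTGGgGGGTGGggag
Kcnj5: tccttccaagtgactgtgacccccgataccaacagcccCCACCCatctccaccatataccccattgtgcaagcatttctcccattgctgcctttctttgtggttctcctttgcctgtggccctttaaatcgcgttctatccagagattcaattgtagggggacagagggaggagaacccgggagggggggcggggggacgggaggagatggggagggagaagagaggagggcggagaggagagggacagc
The Cldn5 stretch is chr16:18776597-18776846 on the plus strand, that of Card10 is chr15:78803043-78803292 on the minus strand, and that of Kcnj5 is chr9:32344345-32344594 on the minus strand.

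The motifs searched, on both strands, were CCGGAA and AGGAAG for ETS factors, AGATAA for GATA factors, CAGATG for the TAL1 E-box, TGTTTAC for FOX factors, TGACGTCA for the cAMP response element, CCACCC for KLF factors and TATAAA for the TATA box, together with the NF-kB consensus. The Cldn5 stretch held none of these letters. The Card10 stretch held CCGGAA and AGGAAG once each, which occur in 12.0% and 29.5% of the 32851 RefSeq promoter stretches of the same length. It also held CCACCC at 3 places, one of which shares bases with CCGGAA on the reverse strand. The Kcnj5 stretch held CCACCC once, a motif found in 28.1% of all stretches. Of the 6 genes 5 had a promoter in the RefSeq table, and Gem had none. The Unc45b stretch, which lies within annotated exons of GENCODE M21, held none of the motifs, and of the 2 for Efna1 the downstream one held AGGAAG at 2 places and CCACCC at 1. No motif was common to Cldn5, Efna1, Card10 and Unc45b, and Gem, also high in libraries 3 and 4, could not be searched. GC content was 59.6% for Cldn5, 76.0% for Card10 and 58.0% for Kcnj5, beside a median of 52.4% over all stretches.

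Claudin 5 transcripts were abundant in the Ly6a-high libraries and close to the counting limit in most others. Cldn5 had 891 and 1897 normalized counts in libraries 3 and 4, against 1.64, 7.85, 1.09, 4.20, 6.14, 34.6 and 5.79 in libraries 1, 2, 5, 6, 7, 8 and 9. The values did not overlap, and library 8 stood above the other 6 of the low libraries. In reads, Cldn5 had 755 and 1658 in libraries 3 and 4, against 33 in library 8 and between 1 and 8 in the remaining 6. The ratio of the lower Ly6a-high library to library 8 was 25.7 (95% exact counting interval 18.2 to 37.7). With 1 added to both values this separation was 25.0-fold, rising to 101-fold when library 8 is left out and to 53.3-fold when library 3 is. It was 16.4-fold under median-of-ratios scaling. All such intervals cover counting error only, not the spread between samples, nor the choice of the extreme libraries. In bulk samples such as these, fewer cells of a type and less RNA per cell cannot be told apart. The protein-coding gene lies on chromosome 16 from 18776847 to 18778262 on the plus strand.

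Efna1 had 1101 and 672 normalized counts in libraries 3 and 4, against 1.64, 3.93, 7.61, 5.59, 7.68, 24.1 and 1.45 in libraries 1, 2, 5, 6, 7, 8 and 9. Library 8 was again the highest of the low libraries, with 23 reads, while the other 6 had between 1 and 7. The lower Ly6a-high library exceeded library 8 by a ratio of 27.9 (interval 18.4 to 44.3). The separation with 1 added was 26.8-fold, and leaving out library 8 or library 4 gave 77.5-fold or 43.9-fold. Efna1 and Cldn5 were within each other's counting intervals, and Cldn5 had the wider separation under table-total scaling (32.5-fold against 30.7-fold for Efna1) and without library 3 or library 8. Efna1 lies on chromosome 3 from 89271733 to 89281142 on the minus strand. Ephb6, a kinase-inactive Eph receptor, was the other matched gene of 25 ephrins, Eph receptors and partners, and had 124 and 61.8 in libraries 3 and 4 against 26.1 to 51.4 in the others. Its separation of 1.20-fold was lost, with overlapping values, under median-of-ratios scaling.

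**Figure D1:**
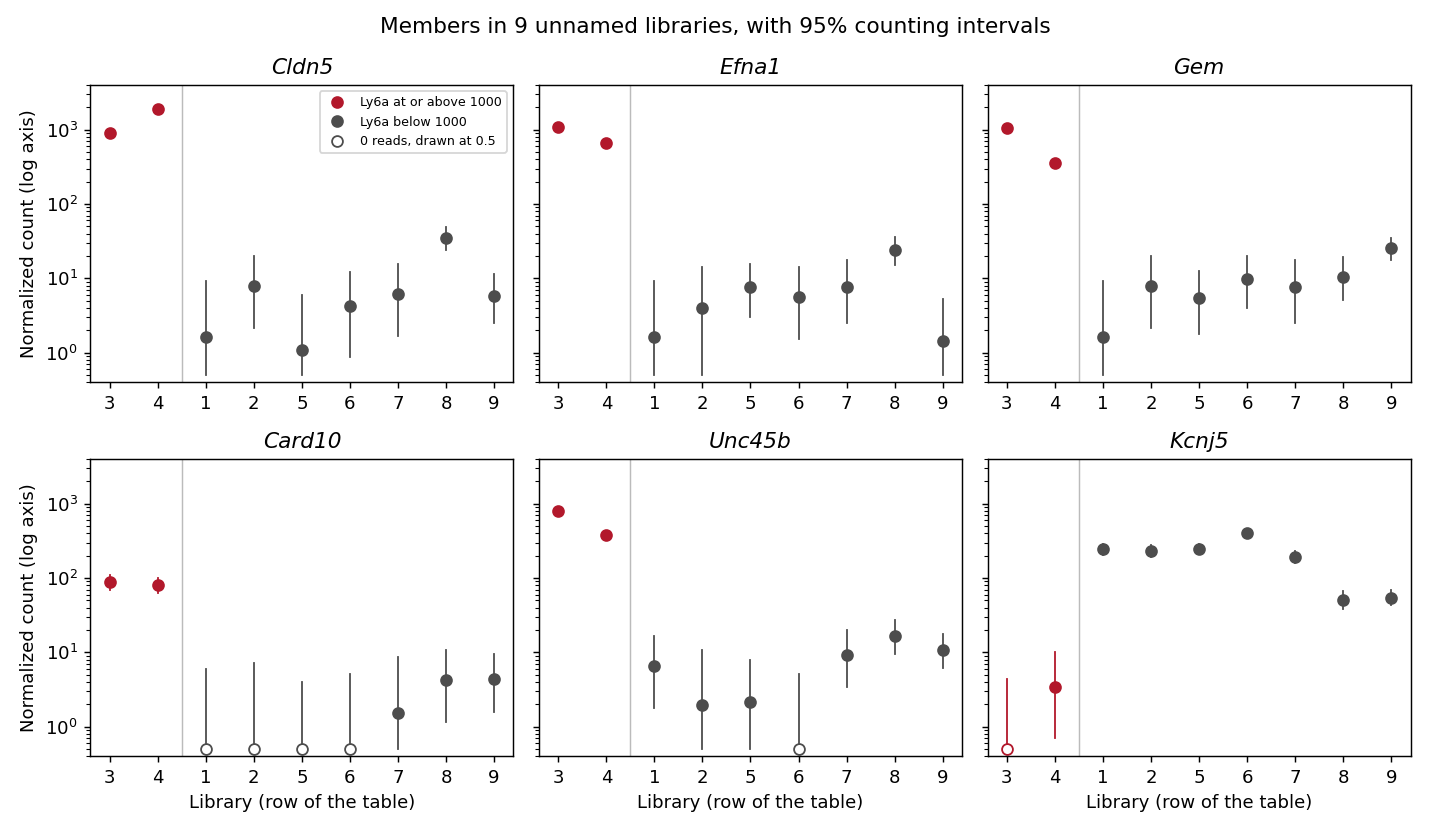
Normalized counts (log axis) of the 6 genes in each library, with Ly6a-high libraries 3 and 4 in red on the left and the other 7 in grey. Bars are 95% exact counting intervals and open circles mark 0 reads; Kcnj5 runs opposite to the other 5 genes.

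The GTPase gene Gem differed most between the Ly6a-high libraries themselves. Gem had 1050 and 351 normalized counts in libraries 3 and 4, against 1.64, 7.85, 5.43, 9.79, 7.68, 10.5 and 25.4 in libraries 1, 2, 5, 6, 7, 8 and 9. Here library 9, not library 8, was the highest of the low libraries, with 35 reads. The ratio of library 4 to library 9 was 13.9 (interval 9.75 to 20.3), and the separation with 1 added was 13.4-fold; leaving out library 4 gave 39.9-fold, and leaving out library 9 gave 30.7-fold. Gem lies on chromosome 4 from 11704457 to 11714752 on the plus strand. Of 20 listed RGK GTPases, calcium channel subunits and partners, Cacna1a, a pore-forming channel subunit, was also matched. It had 15.3 and 19.4 in libraries 3 and 4 against 2.17 to 13.7 in the others, and the values overlapped under median-of-ratios scaling.

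The scaffold gene Card10 was the lowest of the 5, and its reads in the other libraries were too few to rank them. Card10 had 88.5 and 80.1 normalized counts in libraries 3 and 4, against 0, 0, 0, 0, 1.54, 4.19 and 4.35 in libraries 1, 2, 5, 6, 7, 8 and 9. These were 75 and 70 reads in libraries 3 and 4, against 11 reads summed over the other 7. In the 4 libraries at 0, the limit of 3 reads that a count of 0 allows corresponds to 3.26 to 5.89 normalized counts. The two-sided 95% counting intervals of these zeros, drawn in the plot of values by library, are wider and end at 4.01 to 7.24. The ratio of library 4 to library 9 was 18.4 (interval 8.05 to 51.9). Card10 lies on chromosome 15 from 78775138 to 78803042 on the minus strand.

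Of 28 listed CARD scaffold, BCL10-MALT1 and NF-kB pathway genes, 5 besides Card10 were matched. In both Ly6a-high libraries 2 of the 5 were higher than in every other library (51.0% of all genes compared), none of them by 4-fold. In the same libraries 2 were lower (40.8% of all genes), 1 of them, Card9, by at least 4-fold (4.27% of all genes). Card9 did not reach 4-fold with 5 added in place of 1, under either other scaling or with values under 3 reads raised to 3 reads. Bcl10, the direct partner of Card10, had 248 and 212 in libraries 3 and 4 against 92.2 to 180 in the others, a separation of 1.17-fold. Card9, the scaffold of myeloid cells, was at 0 in libraries 3 and 4 and between 3.15 and 21.6 in the others, at most 11 reads in any library. Nfkbib, an inhibitor of NF-kB, was lower in both Ly6a-high libraries, with 530 and 675 against 934 to 2102. Birc3, an NF-kB target, had 143 and 75.5 against 27.2 to 69.2, and Birc2 overlapped. Under median-of-ratios scaling Bcl10 and Birc3 overlapped too, under scaling to the table total Birc2 was higher, and with values under 3 reads raised to 3 reads Card9 overlapped. Birc2 was also higher without library 4 or without library 6.

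The chaperone gene Unc45b had 810 and 382 normalized counts in libraries 3 and 4, against 6.56, 1.96, 2.17, 0, 9.21, 16.8 and 10.9 in libraries 1, 2, 5, 6, 7, 8 and 9. Libraries 8 and 9 had 16 and 15 reads and the other 5 between 0 and 6. The ratio of library 4 to library 8 was 22.8 (interval 13.8 to 40.3), and the separation with 1 added was 21.6-fold, or 45.7-fold without library 4. Tnnt1, a troponin of slow muscle, was the other matched gene of 37 UCS chaperone, HSP90 and muscle genes. It had 2.36 and 5.72 in libraries 3 and 4 against 12.6 to 49.1 in the others, the reverse of Unc45b in direction. The separation of Tnnt1 was only 2.02-fold, on at most 5 reads in libraries 3 and 4 and at most 31 in any other. No myosin heavy chain gene of that list was matched.

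Reads of Unc45b may include those of antisense genes, since the counting is not stated to use strand. The gene lies on chromosome 11 from 82910550 to 82943403 on the plus strand. In GENCODE M21, Unc45bos and Slfn5os lie within or across it on the minus strand and share 255 and 151 exonic bases with it. Slfn5os was matched in the table and showed the same split, with 86.1 and 36.6 normalized counts in libraries 3 and 4 and at most 1.54 in the others. Library 3 over library 4 was 2.35 for Slfn5os (interval 1.53 to 3.68) and 2.12 for Unc45b (interval 1.86 to 2.42). The 2 genes cannot be told apart in their shared bases. Of 14 annotated genes within 25 kb of the 6 genes, the one other matched was Slc50a1, a sugar transporter 1163 bases downstream of Efna1. It had 4818 and 4063 in libraries 3 and 4 against 639 to 1955 in the others, a 2.08-fold separation.

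Kcnj5 was nearly silent in the Ly6a-high libraries and present in every other one. It had 0 and 3.43 normalized counts in libraries 3 and 4, which are 0 and 3 reads, against 244, 232, 249, 408, 192, 51.4 and 54.3 in libraries 1, 2, 5, 6, 7, 8 and 9. The 7 libraries fell apart further, with libraries 8 and 9 at 49 and 75 reads and with counting intervals that ended at 67.9 and 68.1 normalized counts, below the intervals of the other 5, the lowest of which began at 160. The ratio of the lowest of these, library 8, to library 4 was 15.0 (interval 4.83 to 75.1), which runs from the other libraries to the Ly6a-high one. With 1 added it was 11.8-fold. It was 52.4-fold without library 4, 7.37-fold under table-total scaling and 6.69-fold with 5 added in place of 1. Kcnj5 lies on chromosome 9 from 32314707 to 32344350 on the minus strand. Gnb4, a G protein beta subunit and the other matched gene of 37 inward rectifier and G protein genes, had the same order, with 132 and 160 in libraries 3 and 4 against 358 to 854. Libraries 8 and 9 were its lowest of the 7, at 358 and 369.

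All 6 genes reached 10 normalized counts in at least 2 libraries, as did 2341 genes of the table, so they all entered the comparison with it. Of the 6 genes, 5 were higher in both Ly6a-high libraries than in every other library, which held for 51.0% of the 2341 genes. The same 5 were higher by at least 4-fold with 1 added, beside 9.91% of all genes. Kcnj5 was lower in both, beside 40.8% of all genes, and lower by at least 4-fold, beside 4.27%. The genes were chosen on these values, so nothing is read from their counts. The background shows that most of the table separates libraries 3 and 4 from the rest, with 1193 genes higher and 954 lower. With reads scaled to the table total only 2136 genes passed the filter, 1198 of them higher and 513 lower. Under median-of-ratios scaling 2278 genes passed, 869 of them higher and 964 lower. Genes lower by at least 4-fold numbered 100, but 225 of 2214 without library 4 and 56 of the 2136 under table-total scaling. Genes higher by at least 4-fold numbered 232, but 146 of the 2278 under median-of-ratios scaling. By the size of the separation as deposited Efna1 ranked 5 of 2341 on the higher side, Cldn5 6, Unc45b 10, Card10 20 and Gem 30, and Kcnj5 ranked 20 on the lower side.

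**Figure D2:**
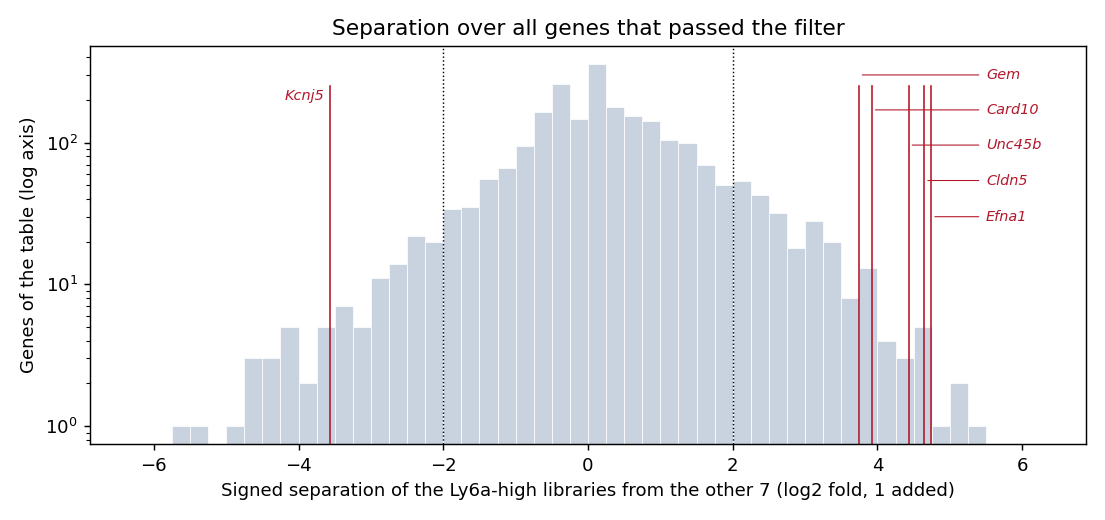
Number of genes (log axis) by the log2 separation of the Ly6a-high libraries from the other 7, positive where both were higher than every other library, negative where both were lower and 0 where values overlapped. Red lines mark the 6 genes and dotted lines 4-fold; 232 of 2341 genes lie at or beyond 4-fold on the right and 100 on the left.

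The 5 genes that were high in libraries 3 and 4 did not keep a fixed ratio between these libraries. Library 3 over library 4 was 0.469 for Cldn5 (95% exact counting interval 0.430 to 0.512), 1.10 for Card10 (0.787 to 1.55) and 1.64 for Efna1 (1.48 to 1.82). It was 2.12 for Unc45b and 2.99 for Gem (2.62 to 3.41). Cldn5 was thus higher in library 4, Efna1, Unc45b and Gem in library 3, and Card10 did not differ beyond counting error. Among the 232 genes at least 4-fold higher in both, the median ratio, with 1 added, was 1.49 and the range from the 5th to the 95th percentile was 0.569 to 3.78, so Cldn5 lay below it. Ly6a itself had a ratio of 0.737 (0.706 to 0.770) and Procr, the endothelial protein C receptor of stem cells, 1.69 (1.62 to 1.77). Per kilobase of annotated exons, Cldn5 had 629 and 1340 normalized counts in libraries 3 and 4, Efna1 601 and 367, Gem 499 and 167, Unc45b 180 and 85.0, and Card10 17.9 and 16.2. On this scale the order of the 5 genes was the same in both libraries, with Cldn5 and Efna1 within counting error of each other in library 3.

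**Figure D3:**
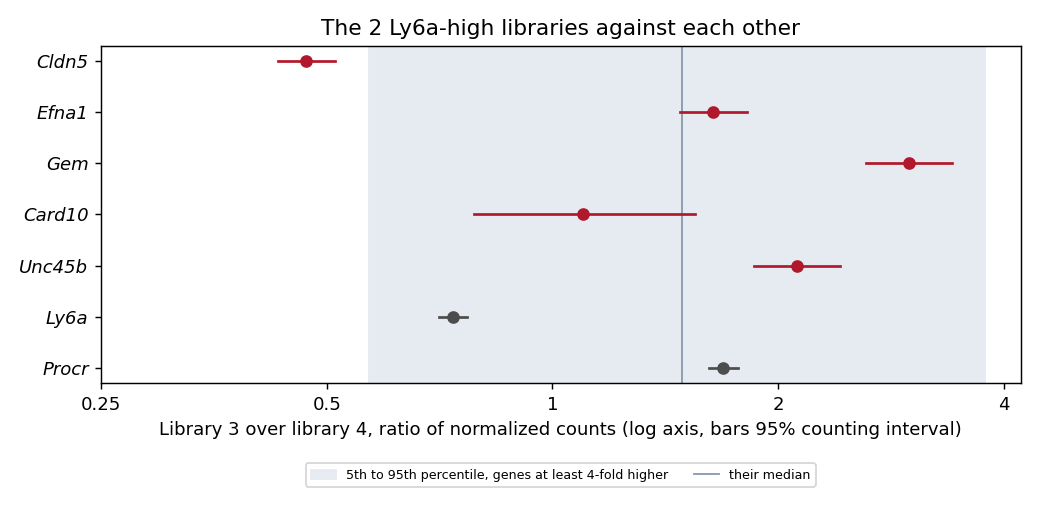
Ratio of normalized counts, library 3 over library 4 (log axis), for the 5 genes in red and for Ly6a and Procr in grey, with 95% exact counting intervals. Cldn5 at 0.469 lies left of the shaded range of genes at least 4-fold higher in both libraries (0.569 to 3.78), and Gem at 2.99 lies to the right of their median.

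Few reads remained in the other 7 libraries, and they were unevenly spread. Summed over Cldn5, Efna1, Gem, Card10 and Unc45b, libraries 3 and 4 had 3340 and 2956 reads, against 86 in library 8, 66 in library 9 and between 7 and 21 in libraries 1, 2, 5, 6 and 7. These reads are not scaled for depth. In normalized counts the sums were 3940 and 3382, against 90.1 in library 8 and 47.8 in library 9, of which Gem made up 25.4. They were 11.5 to 32.2 in libraries 1, 2, 5, 6 and 7, the highest in library 7. As a share of the lower Ly6a-high library, library 8 had 3.89% of Cldn5, 3.59% of Efna1, 2.98% of Gem, 5.23% of Card10 and 4.39% of Unc45b. In library 9 the shares were 0.650% for Cldn5 and 0.216% for Efna1, but 7.22% for Gem, 5.43% for Card10 and 2.84% for Unc45b. Both libraries held reads of all 5 genes, as did library 7, there with 1 read of Card10. Library 8 had larger shares of Cldn5 and Efna1 than library 9, and library 9 a larger share of Gem. Library 7 had nominally more of Cldn5 and Efna1 than library 9, at 0.689% and 1.14%, and less of Gem, Card10 and Unc45b. The counting intervals of libraries 7 and 9 overlapped for each of these genes, so these libraries cannot be ranked by them. For Cldn5 they rest on 4 and 8 reads. In libraries 1, 2, 5, 6 and 7 no share was above 2.79%.

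By the median share, libraries 8 and 9 held more of other genes of this kind. Over the 232 genes at least 4-fold higher in libraries 3 and 4, the median share was 11.8% in library 8, 7.16% in library 9 and 2.22% to 4.35% in the remaining 5. Library 8 was the highest of the 7 for 142 of the 232 genes, and for 3 of the 5 described here. Ly6a was at 1.68% in library 8 and 4.39% in library 9, and Procr at 2.93% and 0.522%. In the remaining 5 libraries Ly6a was at 0.493% to 2.21% and Procr at 0.490% to 0.943%. Library 8 for Ly6a and library 9 for Procr thus lay within the range of those 5. Hoxb5, a transcription factor of stem cells, was at 87.4% in library 8 and 50.0% in library 9. With a separation of 1.14-fold, Hoxb5 is not one of the 232 genes. Whether the reads of the 5 genes in these libraries came from a few cells of the kind in libraries 3 and 4 was not tested.

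**Figure D4:**
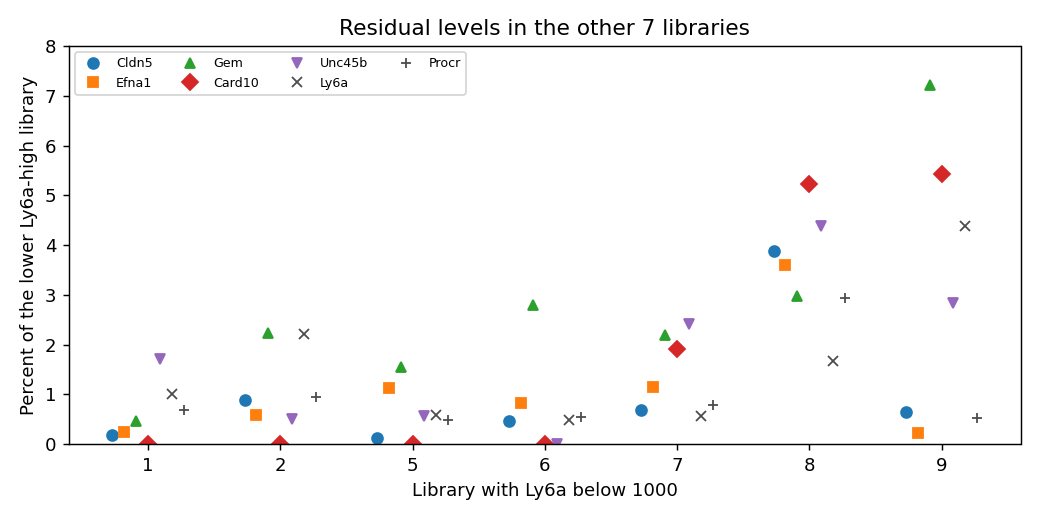
Level in each of the 7 libraries below the Ly6a threshold, as a percentage of the lower of libraries 3 and 4, for the 5 genes (coloured symbols) and for Ly6a and Procr (grey). Library 8 has all 5 genes between 2.98% and 5.23%, and library 9 has Gem at 7.22% with Cldn5 and Efna1 under 1%.

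Endothelial genes other than Cldn5 were mixed in level and direction. Of 55 listed endothelial genes 9 were matched by symbol, so the list covers a small part of the cell type's markers. Several of the matched genes are also known in blood stem cells. The listed Adgrl4 was not matched, because it stands in the data under its older symbol Eltd1. Eltd1 was higher in both Ly6a-high libraries, with a separation of 6.46-fold, and is left out of the counts below. Older symbols of the other listed genes were not searched for. Of the 8 besides Cldn5, 6 were higher in both Ly6a-high libraries, 4 of them by at least 4-fold, and 2 were lower, beside the 51.0%, 9.91% and 40.8% of all genes. Their median separation was 1.70 on the log2 scale, beside 0.04 for all genes. Under median-of-ratios scaling 5 of the 8 were higher, 3 by at least 4-fold, and 1 of the 2 lower genes was lower by at least 4-fold. The number higher by at least 4-fold was 3 with values under 3 reads raised to 3 reads, and 5 without library 8. Emcn, the sialomucin endomucin, had 322 and 213 normalized counts in libraries 3 and 4 against 0 to 19.6 in the others. Clec14a, an endothelial lectin, had 94.4 and 25.2 against 0 to 2.10, at most 2 reads in any other library. S1pr1, a receptor for sphingosine 1-phosphate, had 440 and 269 against 16.9 to 45.1.

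The other matched endothelial genes were read in every library, with low values in libraries 3 and 4 for Stab1. Egfl7, a secreted vascular factor, had 4802 and 4029 in libraries 3 and 4 against 653 to 934, and Tie1, a receptor tyrosine kinase, had 2733 and 1904 against 449 to 1676. Erg, an ETS factor of endothelium and stem cells, had 544 and 420 against 16.9 to 171. Fli1, its relative with a known part in megakaryocytes, was lower, with 2031 and 1661 against 2858 to 6091, and Stab1, a scavenger receptor, had 9.44 and 9.15, at most 8 reads, against 34.4 to 120. Tie1 overlapped under median-of-ratios scaling and Fli1 under table-total scaling. The 16 listed stromal and mural cell genes had no match. Both matched macrophage genes were lower in both Ly6a-high libraries, beside 40.8% of all genes. In libraries 3 and 4 Cd5l had 0 and 0 against 6.29 to 39.8 in the others, and Csf1r had 0 and 1.14 against 3.07 to 82.6. Cd5l was lower by at least 4-fold, beside 4.27% of all genes. It was not with 5 added in place of 1, under table-total scaling or with values under 3 reads raised to 3 reads. All 8 matched megakaryocyte genes were lower in both, 7 by at least 4-fold (40.8% and 4.27% of all genes), as with Itga2b, the CD41 gene, at 1616 and 6543 against 45798 to 77883. Of 3 matched erythroid genes Aqp1 and Ermap were lower in both, beside the same 40.8%, and Rhd overlapped, or was lower too without library 8. All 7 matched stem cell genes were higher in both, 4 by at least 4-fold (51.0% and 9.91% of all genes), one of which is Ly6a, the gene of the split; Hoxb5 overlapped under median-of-ratios scaling. Whether cells of other types among the sorted cells had a part in the values of the 6 genes was not tested.

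Claudin 5 was set beside the other tight junction genes. Of 39 listed, 10 besides Cldn5 were matched, 7 were higher in both Ly6a-high libraries, 3 by at least 4-fold, 1 was lower and 2 overlapped. Over all genes compared 51.0% were higher, 9.91% by at least 4-fold, and 40.8% were lower. The median separation of the 10 was 0.60 on the log2 scale, beside 0.04 for all genes. Ocln, which encodes occludin, had 133 and 97.2 in libraries 3 and 4 against 0 to 19.9. The junctional adhesion molecule genes Jam2 and Jam3 had 422 and 612, and 237 and 132, against 3.93 to 102 and 3.28 to 24.1 in the others. Jam2 was, like Cldn5, higher in library 4 than in library 3. The other claudins were read in every library, with Cldn25 at 1925 and 1835 against 529 to 1173 and Cldn12 at 110 and 85.8 against 12.3 to 66.0. Cldnd2, a claudin domain gene, was lower, with 8.26 and 10.3 against 31.4 to 40.6. Library 8 was the highest of the 7 for Cldn5, Ocln, Jam2, Jam3, Cldn12 and Cldn25. The count at 4-fold or more was 1 under median-of-ratios scaling, and Marveld1 was higher rather than overlapping under table-total scaling or without library 4. Tmem204 was higher without library 4 or without library 8.

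**Figure D5:**
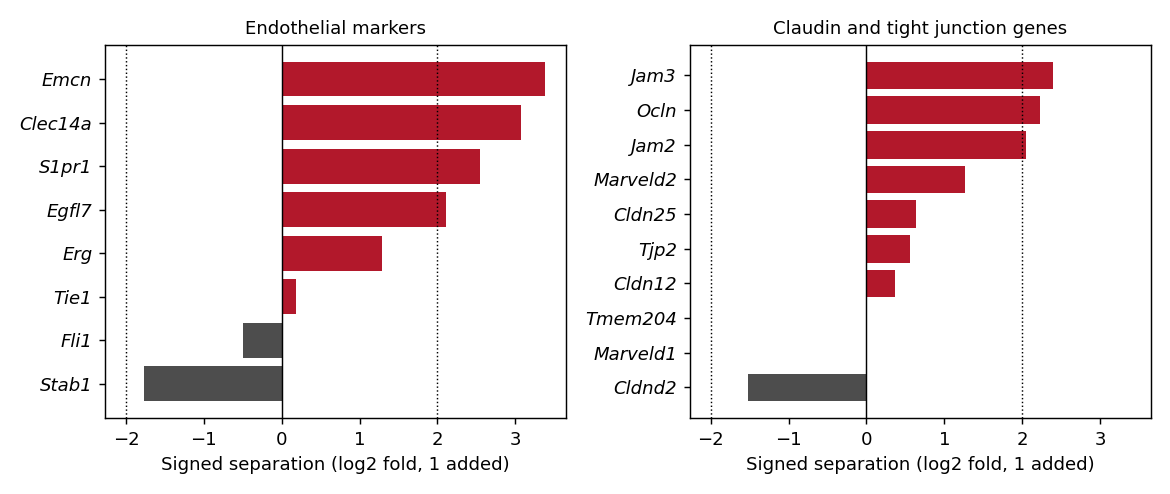
Log2 separation, with 1 added, of the matched endothelial genes (left) and tight junction genes (right) other than Cldn5, red where both Ly6a-high libraries were above every other library and grey where both were below; dotted lines mark 4-fold. Emcn has the longest bar on the left and Jam3 on the right, and Marveld1 and Tmem204 have no bar because their values overlapped.

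The genes most like each of the 6 were found by Pearson's r of log2 values with 1 added, among 2185 named genes. The 9 points share the gap between libraries 3 and 4 and the rest, so r within the other 7 libraries is given beside it, both as a description. For Cldn5 the nearest genes were Paqr5 (0.984 over 9 libraries and 0.87 over 7), Eps8 (0.983 and 0.92), which encodes an actin regulator, and Wfdc2 (0.983 and 0.87). Efna1 was nearest to Chpf2 (0.985 and 0.85), Sel1l3 (0.977 and 0.72) and Procr (0.977 and 0.71). Gem was nearest to Gsta4 (0.993 and 0.95), a glutathione transferase, to the transcription factor gene Runx2 (0.989 and 0.93) and to Osgin1 (0.989 and 0.87). Card10 was nearest to Cyp2j6 (0.993 and 0.96), the ceramide synthase gene Cers4 (0.992 and 0.95) and Itm2a (0.991 and 0.95), although it had no reads in 4 of the libraries. Unc45b was nearest to Tmed4 (0.986 and 0.92), Zfp467 (0.986 and 0.91) and Acot1 (0.981 and 0.88). Kcnj5 was nearest to Gpr97 (0.989 and 0.91), Inpp5b (0.987 and 0.95) and Cks1b (0.986 and 0.88), all lower in libraries 3 and 4. The 3 nearest genes differed for each of the 6.

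Likeness in shape was not likeness in level. Wfdc2, whose values were 262 and 285 in libraries 3 and 4 and at most 10.5 in the others, was as scarce there as Cldn5, and Gsta4, with 133 and 96.1 against 1.64 to 8.69, was as restricted as Gem. Chpf2 had 826 and 828 against 296 to 433, so it shared the order of Efna1 without its near absence in the other libraries. Tmed4 likewise had 1979 and 1907 against 663 to 1107. Gpr97, an adhesion G protein-coupled receptor, had 76.7 and 204 in libraries 3 and 4 against 2337 to 9823, an order like that of Kcnj5 at a far higher level of reads.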

How the data were processed

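The single table the authors deposited gives normalized counts (a per-library scaled signal) of 2402 genes, 1 gene to a column, in 9 unnamed rows. Per the submitters' processing notes, mm10, Bowtie2, STAR and DESeq were used, with no roles or versions. How reads were counted, on which annotation and strand, and how the genes were chosen is not stated there. Per the labels' protocols, Trizol was used for RNA and a NEBNext Ultra kit for libraries.

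The 6 genes and the gene lists were chosen with earlier results of these data known. Rows were never assigned to samples, so the planned limma comparisons between groups were not run. Values in each row were whole multiples of 1 step, and dividing by it gave whole reads within 0.1 for 100% of values. Reads summed over the table were 1790670 to 4373460 per library; these are not library depths. Counting intervals are exact at 95% (Poisson for a value, conditional binomial for a ratio) and, like the floor of 3 reads, cover counting error only. The comparison over the table used the 2341 genes that reached 10 normalized counts in 2 or more libraries. Separation is the lower of libraries 3 and 4 over the highest other library, or the reverse, with 1 added to both. Named genes were the 6, Ly6a, list members, and the 3 genes most correlated with each; annotated neighbours, Procr, Hoxb5 and all stretches of values were added after the table was seen. Coordinates are from GENCODE M21 and promoters from RefSeq (GRCm38.p6). The steps were tested on simulated data. Computations used Python 3.11.15, pandas 2.3.3 and scipy 1.17.1.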

Additional observations from a re-analysis of the deposited data

How the results depend on the processing

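The counts of the 6 genes were the same in every setting tried. The genes had been chosen on these values and were widely separated, so the counts could hardly change and lend no support. In each setting 5 were higher in both Ly6a-high libraries, and the same number by at least 4-fold. The settings were pseudocounts of 0.5 and 5, both other scalings, values raised to 3 reads, Ly6a thresholds of 500 and 2000, no filter, and leaving out each library in turn. Without library 3 or library 4 the counts rest on the other Ly6a-high library alone. Over these 17 settings the separation ranged from 16.4- to 101-fold for Cldn5, 21.2 to 77.5 for Efna1, 10.7 to 39.9 for Gem, 9.10 to 16.7 for Card10, 17.0 to 45.7 for Unc45b and 6.69 to 52.4 for Kcnj5. The other Ly6a thresholds chose the same 2 libraries, so they could not change a value. Relative to the deposited scaling, the median log2 separation of all genes moved by 0.54 under table-total scaling and by -0.50 under median-of-ratios scaling. The values for Kcnj5 in libraries 3 and 4, and for Card10 in the libraries other than these, rest on few reads. No paired analysis was possible because the rows carry no sample names or replicate numbers.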
